A study of Mus musculus with 18 samples.

Results

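The 10 genes examined here were cytokines of the interleukin 6 (IL-6) and interleukin 1 (IL-1) families with the receptor subunits and the feedback gene of the IL-6 pathway, chosen by symbol: the IL-6 family ligands *Il6*, *Lif*, *Il11* and *Clcf1*, the receptor subunits *Il6st* and *Osmr*, the signalling inhibitor *Socs3*, and the IL-1 family cytokines *Il33*, *Il1b* and *Il1a*. Each symbol matched 1 Ensembl row, so the members were 10 of the 38924 genes in the table. RNA was sequenced from fibroblasts of the heart, kidney and tail of 10-week-old male *Rosa* mT/mG mice, after transplantation for 3 days (HFs, KFs and TFs) or after the same time in culture (HFc, KFc and TFc), with 3 libraries in each of the 6 groups. All cells had first been cultured for 10 days. Between 4 and 5 times 1e5 of them were placed on gelatin foam under the kidney capsule of C57BL/6J recipients aged 10 to 11 weeks, and live CD45-;TdTomato+ cells were sorted afterwards, whereas the cells that were left over were replated as controls. All 6 groups carried the mT/mG allele, which gives membrane tdTomato to every donor cell and is not restricted to fibroblasts. The labels do not say whether the libraries of a group came from separate animals, so p-values measure the spread between these libraries.

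The IL-6 family signals through gp130, the product of *Il6st*, which pairs with a further receptor chain such as OSMR or LIFR and activates JAK kinases and STAT3. SOCS3, a STAT3 target, binds gp130 and JAK and limits the signal. IL-1 alpha and IL-33 are released from damaged cells and act as alarm signals, whereas IL-1 beta is made as a precursor and cleaved by caspase-1. IL-1 receptors signal through MyD88 to NF-kB, and *Il6* is a known NF-kB target.

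The stretch before the transcription start is shown for 4 members as examples, namely the ligands *Il6* and *Lif*, the feedback gene *Socs3* and the alarm cytokine *Il33*, and the other members are described by their matches. Each line gives the 250 bases before the start in RefSeq, on the strand of the gene and from 5′ to 3′, in GRCm38 coordinates. Capitals mark matches to 3 motifs, searched on both strands: an NF-kB motif (GGGA, any base, TTTCC), an AP-1 motif (TGANTCA) and a STAT motif (TTCNNNGAA), where N is any base.
Il6, chr5:30012864-30013113, plus strand: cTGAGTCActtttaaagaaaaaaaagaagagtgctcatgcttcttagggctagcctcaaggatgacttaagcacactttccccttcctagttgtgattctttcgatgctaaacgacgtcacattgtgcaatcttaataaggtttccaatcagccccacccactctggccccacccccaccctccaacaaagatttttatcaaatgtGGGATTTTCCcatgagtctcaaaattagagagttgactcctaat
Lif, chr11:4257318-4257567, plus strand: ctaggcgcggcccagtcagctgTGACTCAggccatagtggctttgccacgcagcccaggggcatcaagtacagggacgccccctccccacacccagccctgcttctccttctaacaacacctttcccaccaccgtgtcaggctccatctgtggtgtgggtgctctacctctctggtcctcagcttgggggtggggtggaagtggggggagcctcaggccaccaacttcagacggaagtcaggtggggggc
Socs3, chr11:117969367-117969616, minus strand: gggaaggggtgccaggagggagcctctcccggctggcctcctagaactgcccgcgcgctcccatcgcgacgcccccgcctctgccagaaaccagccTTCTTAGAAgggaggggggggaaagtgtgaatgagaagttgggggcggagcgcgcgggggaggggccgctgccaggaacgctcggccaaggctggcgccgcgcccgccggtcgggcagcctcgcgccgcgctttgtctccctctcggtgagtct
Il33, chr19:29924863-29925112, plus strand: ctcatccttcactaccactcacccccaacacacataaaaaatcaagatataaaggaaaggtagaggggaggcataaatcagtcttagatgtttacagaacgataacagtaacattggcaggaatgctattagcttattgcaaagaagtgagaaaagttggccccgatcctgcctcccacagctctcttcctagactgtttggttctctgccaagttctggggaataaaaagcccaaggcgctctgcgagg

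The *Il6* stretch held an NF-kB match from -44 to -35 and an AP-1 match from -249 to -243, counted in bases from the start. *Lif* held an AP-1 match from -228 to -222, and *Socs3* a STAT match from -154 to -146. Neither of the 2 *Il33* starts had a match, and the same was true of *Il1b*, *Il6st* and *Osmr*. *Il1a* and the second start of *Il11* had 1 AP-1 match each, and no stretch for *Clcf1* was used here. Of 32851 RefSeq promoters of this length, 0.356% held the NF-kB motif, 6.75% the AP-1 motif and 7.02% the STAT motif. A match is a description of the letters only. RefSeq starts can differ from the gene ends of the GENCODE annotation, and the *Socs3* stretch lies within the GENCODE span of the gene.

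Levels are given as CPM, the counts of a gene scaled to a common library total. Library totals lay between 17927838 and 32245168, and a gene at 3 counts or fewer, equal to 0.093 to 0.167 CPM, was treated as not detectable at this depth; these limits cover counting error only. All 10 members entered the tests, but *Il1a*, *Il1b* and *Il33* did so only through the transplanted libraries. The library labelled KFs replicate 3 stood apart. Its *Xist* level was 1716 CPM and its Y-linked genes summed to 0.83 CPM, against at most 0.40 and at least 173.5 CPM in the other 17 libraries, which goes against male donors, and values or calls without it are given where they differ for the kidney. Fibroblast markers summed to between 9075 and 12507 CPM in culture and between 15628 (KFs replicate 3) and 66527 CPM after transplantation. These sums lay mostly in *Col1a1* and *Col1a2*. The median over libraries went from 133 to 441 CPM for *Pdgfra*, from 44.9 to 665 CPM for *Dcn* and from 0.444 to 67.0 CPM for *Lum*. It went from 374 to 405 CPM for *Pdgfrb* and from 121 to 53.0 CPM for *Thy1*. In bulk RNA, fewer cells that express a gene and less RNA per cell cannot be told apart.

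Transplantation was compared with culture in each organ. In heart fibroblasts *Il33*, *Il1b* and *Socs3* rose and *Lif* and *Clcf1* fell. In kidney fibroblasts *Il33*, *Il1b*, *Il1a* and *Socs3* rose, and no member fell by edgeR or DESeq2 when all libraries were used, with 1 (*Il11*) lower at an unadjusted p of 0.0485. In tail fibroblasts *Il6*, *Lif*, *Il33*, *Il1b* and *Socs3* rose and *Il11* and *Clcf1* fell. A change was called where the adjusted p was under 0.05 and the log2 fold change was past 1 in either direction (edgeR quasi-likelihood test, Benjamini-Hochberg adjustment over 16577 genes). By this rule 5 of 10 members were called in the heart, 4 in the kidney and 7 in the tail, against 27.7%, 22.6% and 16.5% of all genes tested. Of these, 3, 4 and 5 members rose, against 18.3%, 14.7% and 11% of all genes, and 2, 0 and 2 fell, against 9.33%, 7.99% and 5.53%. At the p threshold alone 7, 7 and 8 members passed, against 56.4%, 48.8% and 38.8% of all genes, and the libraries of 7, 9 and 9 members did not overlap between the states, against 67.6%, 49.5% and 60.3%. The members' median on the log2 scale was 0.57, 1.03 and 1.92, against 0.05, 0.09 and 0 over all genes. Since *Il1a*, *Il1b* and *Il33* were tested only because they were present after transplantation, these counts and medians are descriptions. The same holds for the p-values of these 3 genes for transplanted against cultured cells given below. It also holds for the p-values of *Il1a* between transplanted groups, since this gene entered through KFs and TFs libraries in which it was high. *Il33*, *Il1b* and *Socs3* were higher in all 3 organs, as were 878 of the 16577 genes tested.

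**Figure D1:**
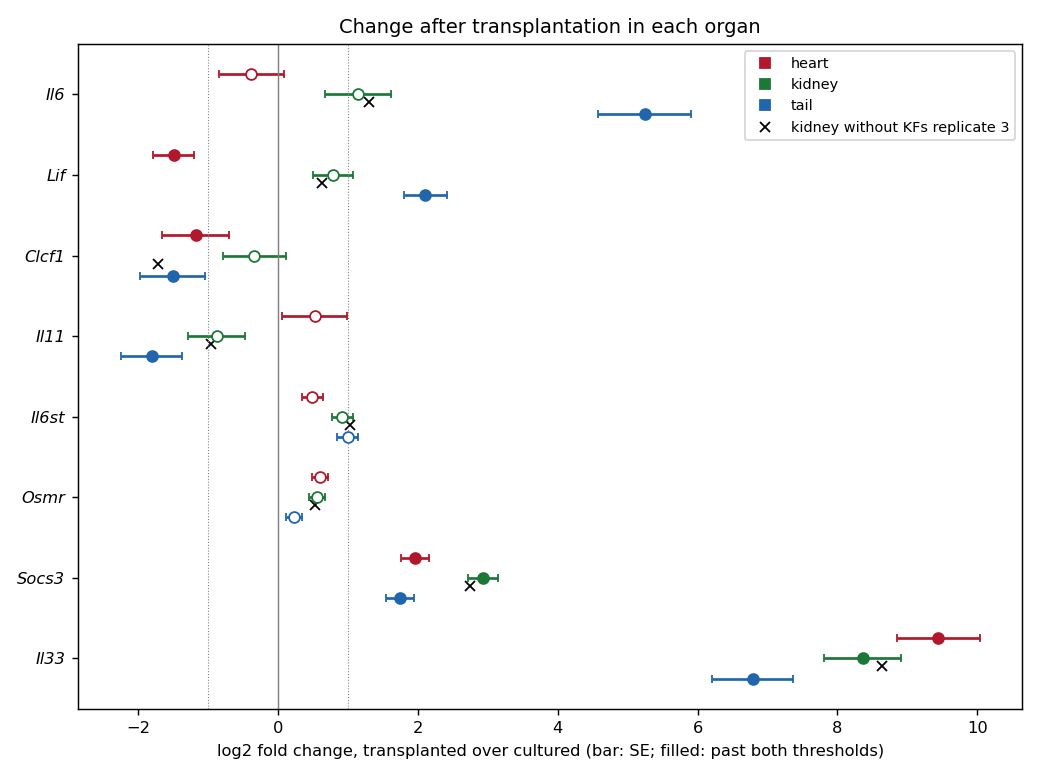
Log2 fold change of 8 members after transplantation over culture in heart, kidney and tail fibroblasts (points, with bars for the standard error; filled points passed both thresholds; dotted lines mark the fold limit; crosses are the kidney values without KFs replicate 3). *Il6* stood at 5.24 in the tail and -0.38 in the heart, *Lif* had opposite signs in heart and tail, and *Il33* was above 6 in every organ. *Il1a* and *Il1b* are left out because whole groups had no counts.

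*Il6*, the ligand that names its family, differed mostly in the cultured cells. HFc had 18.6, 20.0 and 21.5 CPM, KFc had 7.78, 10.0 and 7.24 CPM, and TFc had 0, 0.415 and 0.509 CPM (0, 10 and 11 counts). After transplantation HFs had 12.7, 10.8 and 20.7 CPM, KFs had 23.9, 17.5 and 15.3 CPM, and TFs had 14.9, 13.7 and 3.66 CPM. The cultured groups did not overlap. After transplantation HFs overlapped with both KFs and TFs, and every KFs library lay above every TFs library. In the tail the log2 fold change was 5.24 ± 0.67 (SE; edgeR, adjusted p = 2.31e-05), with a range of 4.53 to 5.82 when single libraries were left out; the lowest value came without TFc replicate 1, the library at 0. In the heart it was -0.38 ± 0.46 (adjusted p = 0.502), and the groups overlapped. In the kidney every KFs library lay above every KFc library, but the change of 1.15 ± 0.47 missed the threshold (edgeR, adjusted p = 0.0554), and without KFs replicate 3 it was 1.29 and passed (adjusted p = 0.0243).

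*Lif*, leukaemia inhibitory factor, which signals through gp130 with LIFR, moved in opposite directions in heart and tail. HFc stood at 47.5, 47.0 and 47.3 CPM, the highest values of any group, and HFs at 19.9, 15.6 and 13.1 CPM. TFc stood at 3.88, 4.06 and 4.35 CPM, the lowest values, and TFs at 25.9, 18.8 and 8.27 CPM. The heart groups and the tail groups each did not overlap, and the 3 TFs libraries spread over the HFs range and beyond it on both sides. *Lif* fell by 1.49 ± 0.29 on the log2 scale in the heart (edgeR, adjusted p = 0.00044) and rose by 2.11 ± 0.31 in the tail (adjusted p = 8.8e-05). It was the 1 member of 10 called in opposite directions in a pair of organs, against 223 (1.35%) of all genes tested. KFc had 20.2, 18.1 and 17.7 CPM and KFs had 23.0, 35.5 and 42.3 CPM, and this kidney difference of 0.79 ± 0.28 was under the fold limit (edgeR, adjusted p = 0.0321; without KFs replicate 3, 0.63 and adjusted p = 0.0869).

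*Clcf1* encodes cardiotrophin-like cytokine factor 1, a ligand of the ciliary neurotrophic factor receptor. Its levels were 10.7, 11.4 and 12.2 CPM in HFc and 5.75, 4.32 and 4.49 CPM in HFs. TFc had 32.6, 37.0 and 32.7 CPM and TFs 12.1, 12.5 and 11.7 CPM, so that both pairs of groups were separate and the transplanted cells were lower. The log2 fold changes were -1.18 ± 0.48 in the heart (edgeR, adjusted p = 0.0479) and -1.50 ± 0.46 in the tail (adjusted p = 0.0185), and the heart call was close to the threshold. KFc had 31.6, 29.9 and 28.7 CPM, whereas KFs had 8.48 and 10.0 CPM in replicates 1 and 2 and 60.1 CPM in replicate 3. The kidney groups overlapped through this 1 library. With it the kidney change was -0.34 ± 0.45 (edgeR, adjusted p = 0.556), and without it *Clcf1* fell by 1.72 ± 0.12 on the log2 scale (adjusted p = 1.97e-08), while without KFs replicate 1 the value was 0.05 (adjusted p = 0.925). The KFs spread also entered the common error of the fit: without KFs replicate 3 the heart and tail changes were -1.17 (adjusted p = 2.97e-07) and -1.52 (adjusted p = 1.91e-08).

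*Il11*, a ligand known in fibroblasts for its induction by TGF-beta, was the rarest of the 4 ligands in each group except TFc, where *Il6* was lower. KFc had 2.73, 3.31 and 3.45 CPM, TFc had 2.17, 2.28 and 2.82 CPM, and HFc had 0.380, 0.444 and 0.465 CPM. KFs had 0.634, 2.66 and 2.08 CPM, TFs had 0.669, 0.763 and 0.640 CPM, and HFs had 0.868, 0.640 and 0.311 CPM. *Il11* was thus low in heart cells in both states, and TFs lay below every TFc library. It fell by 1.81 ± 0.44 on the log2 scale in the tail (edgeR, adjusted p = 0.00433). The kidney difference of -0.88 ± 0.41 did not pass (adjusted p = 0.0892; without KFs replicate 3, -0.96 and adjusted p = 0.0973), although the groups did not overlap, and the heart difference of 0.53 ± 0.46 did not pass either (adjusted p = 0.347).

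**Figure D2:**
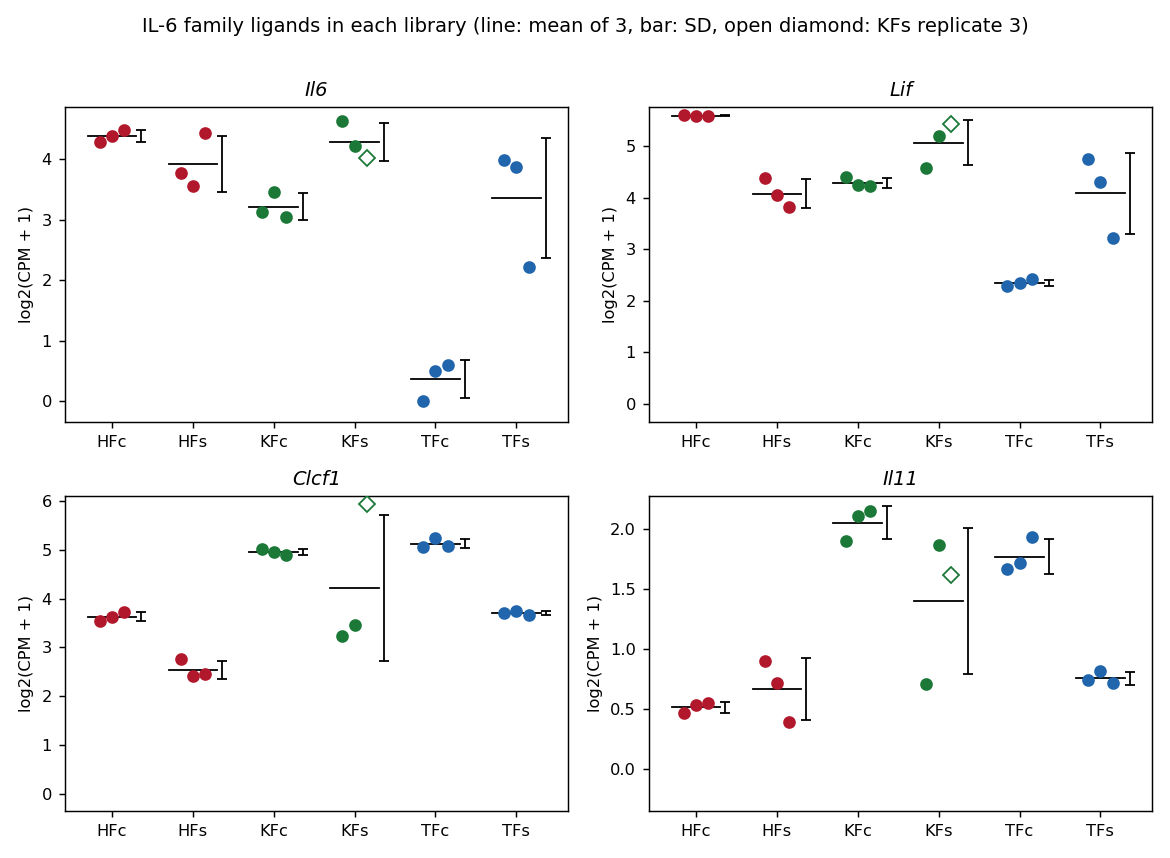
Level of *Il6*, *Lif*, *Clcf1* and *Il11* in each of 18 libraries, as log2(CPM + 1), by group (points, with a line for the mean of 3 and a bar for the SD; the open diamond is KFs replicate 3). *Il6* in TFc lies near 0 and *Lif* is highest in HFc and lowest in TFc; the diamond stands far above the other KFs points for *Clcf1*.

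*Il6st*, the shared gp130 chain, was the member with the highest level per kilobase of exon in every group except KFs, where *Il33* was higher. The cultured levels ran from 257 to 264 CPM in KFc, from 649 to 679 CPM in HFc and from 936 to 986 CPM in TFc, with no overlap between organs. Transplanted libraries had 772, 812 and 1091 CPM in HFs, 620, 449 and 440 CPM in KFs, and 1885, 1966 and 1966 CPM in TFs. Every transplanted library was above every cultured library of its organ. The differences of 0.49 ± 0.15 in the heart (edgeR, adjusted p = 0.0121), 0.92 ± 0.15 in the kidney (adjusted p = 0.000142) and 0.997 ± 0.15 in the tail (adjusted p = 0.000113) passed the p threshold but not the fold limit of 1; without KFs replicate 3 the kidney value was 1.03 and passed both. Per kilobase of exon the group means of *Il6st* lay between 23.4 CPM in KFc and 174.7 CPM in TFs.

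*Osmr*, the chain that binds oncostatin M together with gp130, varied less. HFc had 203, 210 and 221 CPM and HFs 270, 273 and 385 CPM. KFc had 172, 189 and 185 CPM and KFs 254, 275 and 300 CPM, while TFc had 256, 260 and 269 CPM and TFs 301, 333 and 285 CPM. Transplanted libraries were again higher in each organ with no overlap. The differences were 0.61 ± 0.11 in the heart (edgeR, adjusted p = 0.000312) and 0.55 ± 0.11 in the kidney (adjusted p = 0.000839; 0.52 without KFs replicate 3), both under the fold limit, and 0.22 ± 0.11 in the tail, which did not pass (adjusted p = 0.129). Per kilobase of exon its group means spanned 15.0 to 25.5 CPM.

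*Socs3*, the feedback inhibitor, rose in every organ. HFc had 16.4, 13.4 and 20.1 CPM and HFs 70.7, 47.3 and 68.0 CPM. KFc had 13.2, 14.4 and 14.8 CPM and KFs 101, 90.5 and 148 CPM, and TFc had 39.2, 42.8 and 40.2 CPM and TFs 151, 161 and 97.1 CPM. No cultured library of any organ reached the lowest transplanted library. The log2 fold changes were 1.96 ± 0.21 in the heart (edgeR, adjusted p = 1.38e-06), 2.93 ± 0.21 in the kidney (adjusted p = 5.86e-08; 2.74 without KFs replicate 3) and 1.74 ± 0.20 in the tail (adjusted p = 9.15e-06). The STAT motif in the *Socs3* stretch printed above is the only match found there.

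**Figure D3:**
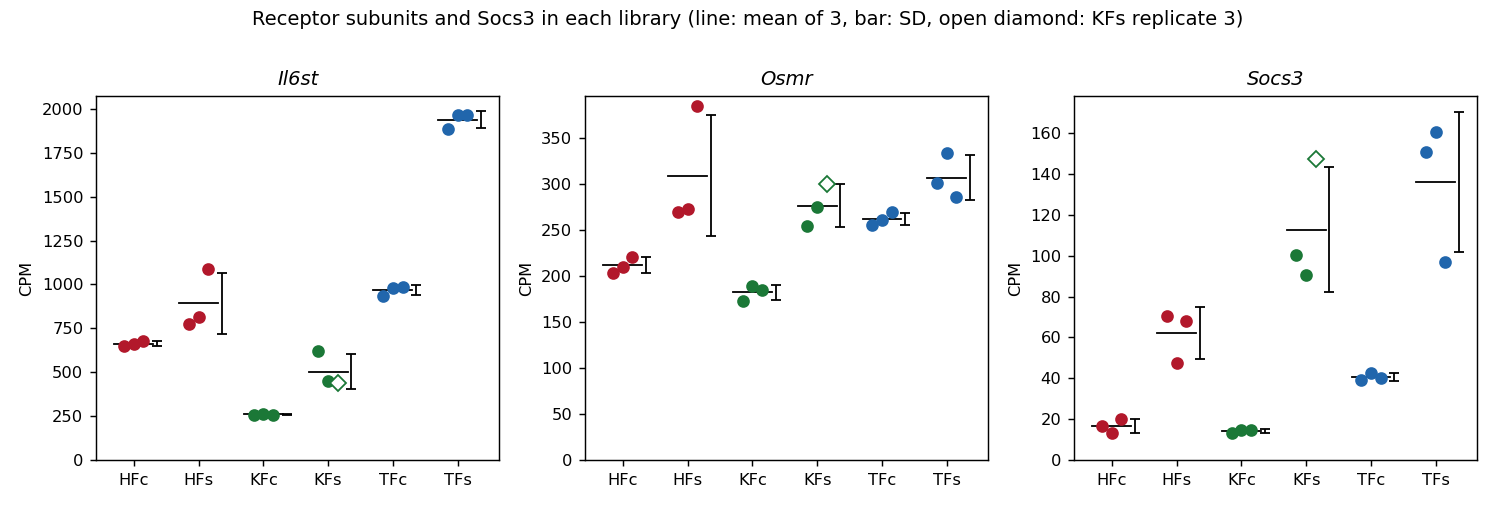
Level of *Il6st*, *Osmr* and *Socs3* in CPM in each library, by group (points, with a line for the mean of 3 and a bar for the SD; the open diamond is KFs replicate 3). For all 3 genes each transplanted group lies above the cultured group of its organ, and *Il6st* reaches 1885 to 1966 CPM in TFs.

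*Il33*, the nuclear alarm cytokine that binds the receptor ST2, had the largest change of the members with counts in every group. Cultured libraries held 6, 11 and 4 counts in HFc, 6, 27 and 6 in KFc, and 1, 14 and 6 in TFc, all below 1 CPM. After transplantation its levels were 216, 161 and 143 CPM in HFs, 174, 202 and 86.7 CPM in KFs, and 25.4, 29.6 and 37.9 CPM in TFs. Heart and kidney overlapped, and every TFs library lay below them. The log2 fold changes were 9.44 ± 0.59 in the heart (edgeR, adjusted p = 9.23e-09), 8.36 ± 0.55 in the kidney (adjusted p = 2.19e-08; 8.64 without KFs replicate 3) and 6.79 ± 0.58 in the tail (adjusted p = 4.89e-07). With so few counts in culture 1 library moved these sizes: the kidney value was 9.46 without KFc replicate 2, and the tail value was 6.13 without TFc replicate 1 and 7.79 without TFc replicate 2. Per kilobase of exon the means were 60.0 CPM in HFs, 53.4 in KFs and 10.7 in TFs, against at most 0.16 in culture.

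*Il1b*, the cytokine that is activated by caspase-1, was detected mainly after transplantation. Its counts were 2, 4 and 0 in HFc and 0 in all KFc and TFc libraries. They were 4, 25 and 213 in HFs, 166, 420 and 2 in KFs, and 65, 35 and 23 in TFs, or 0.217 to 7.36, 0.092 to 13.4 and 1.05 to 3.63 CPM. The transplanted libraries of heart and kidney thus differed widely among themselves, and KFs replicate 3 was under the floor. *Il1b* was at least 63.1-fold higher in KFs than in KFc (edgeR, adjusted p = 0.00436) and at least 17.8-fold higher in TFs than in TFc (adjusted p = 0.021), both computed against a floor of 3 counts per library. The kidney bound was 94.3-fold without KFs replicate 3 and 31.4-fold without KFs replicate 2, and the tail bound was 11.46-fold without TFs replicate 1. The tail call was lost when that library or any 1 TFc library was left out (edgeR, adjusted p = 0.0508 to 0.0601). The heart difference, called at a log2 fold change of 5.31 ± 1.73 (edgeR, adjusted p = 0.021), rested on HFs replicate 3, since without this library it was 3.16 and not called (adjusted p = 0.141).

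*Il1a* stayed at or under 3 counts in all heart libraries and in all KFc and TFc libraries. KFs had 42, 85 and 3 counts (1.66, 2.72 and 0.138 CPM) and TFs had 12, 2 and 0. *Il1a* was at least 14.2-fold higher in KFs than in KFc (edgeR, adjusted p = 0.00631), and this bound was 20.6-fold without KFs replicate 3 and 8.49-fold without KFs replicate 2. The tail difference, at least 2.15-fold, was not called (adjusted p = 0.0584), lay mostly in the 12 counts of TFs replicate 1 and was called when KFs replicate 3 was left out (adjusted p = 0.0246). No heart difference was detectable at this depth.

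**Figure D4:**
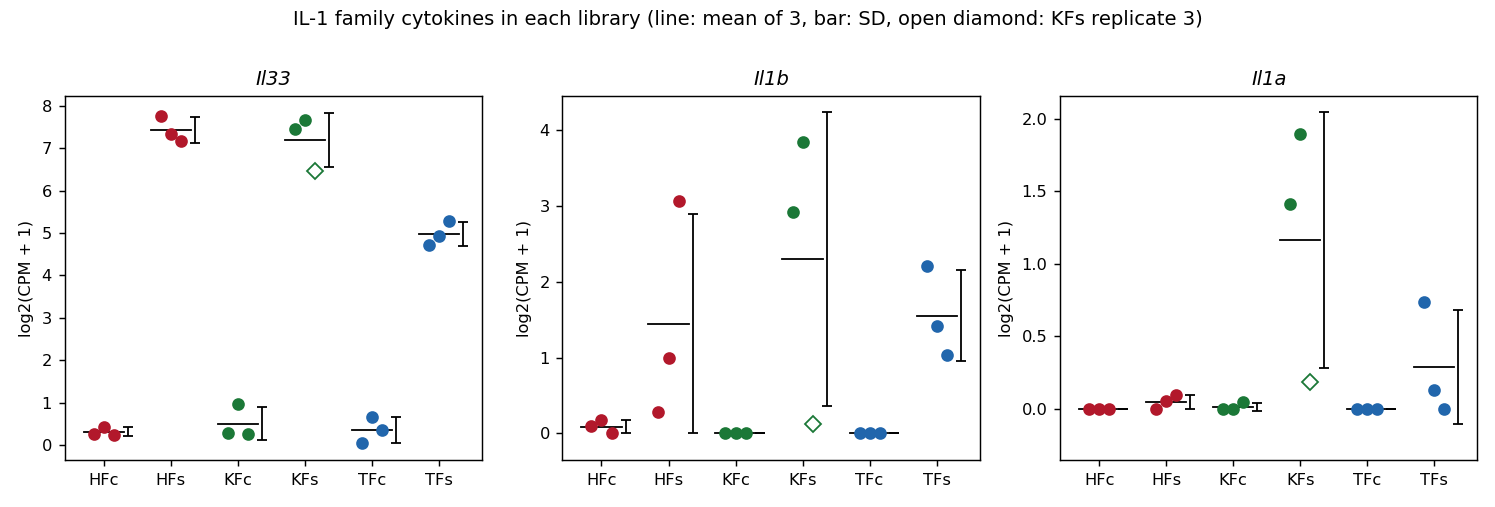
Level of *Il33*, *Il1b* and *Il1a* in each library, as log2(CPM + 1), by group (points, with a line for the mean of 3 and a bar for the SD; the open diamond is KFs replicate 3). *Il33* separates all transplanted from all cultured libraries, whereas *Il1b* and *Il1a* vary between libraries of 1 group and are near 0 in KFs replicate 3.

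Markers of leukocytes were read beside *Il1b* and *Il1a*, in samples whose transplanted cells had been gated as CD45-. *Ptprc*, which encodes CD45, had 62, 179 and 307 counts in HFs, 176, 270 and 6 in KFs and 77, 84 and 86 in TFs, against 111 to 454 in culture. Among KFs libraries replicate 3 had the fewest counts of *Ptprc*, *Il1b* and *Il1a*, and in HFs *Ptprc* and *Il1b* were both lowest in replicate 1 and highest in replicate 3. In TFs *Ptprc* varied little, with 4.30, 4.01 and 3.93 CPM in replicates 1, 2 and 3. *Il1b* stood at 3.63, 1.67 and 1.05 CPM in the same libraries. The 10 macrophage markers summed to 434 to 464 CPM in KFc and 192 to 223 CPM in TFc, where *Il1b* had no counts, and to 44.7 to 161 CPM in KFs and 46.7 to 55.6 CPM in TFs. In the heart they summed to 94.3 to 110 CPM in HFc and to 90.7, 156 and 150 CPM in HFs replicates 1, 2 and 3. Among the HFs libraries *Ptprc*, *Cd68*, *Itgam* and *Cd14* had their highest CPM in replicate 3. *Csf1r*, *Lyz2*, *Adgre1*, *C1qa*, *Fcgr1* and *Mrc1* had theirs in replicate 2, so the list did not share 1 order. Over all libraries *Cd14* was highest in KFs replicate 3 (29.7 CPM). The 6 neutrophil markers summed to 5.58 to 12.3 CPM in culture and 13.8 to 22.0 CPM after transplantation, with *Ly6g* at 0 in all 18 libraries and *S100a9* at 0 in culture and at most 41 counts after transplantation. After transplantation these sums lay mostly in *Cxcr2* (11.0 to 17.7 CPM) and *Csf3r* (2.71 to 6.21 CPM). The highest sum, 22.0 CPM, was that of KFs replicate 3, which had 2 counts of *Il1b*. Proximal tubule markers summed to 104, 1001 and 52.2 CPM in HFs and to 101 to 283 CPM in TFs, against at most 11.2 CPM in HFc and TFc. The kidney groups overlapped, with 93.5 to 99.6 CPM in KFc and 47.3 to 106 CPM in KFs. Of these markers *Lrp2* reached 99.5 CPM in a cultured library. *Kap* and *Slc27a2* had no counts in culture and at least 1.38 and 4.01 CPM after transplantation. The part of these cells in the member results was not tested.

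The organs were next compared within each state, at an adjusted p under 0.05 with no fold limit. In culture 6 of 10 members differed between HFc and TFc, 5 between KFc and TFc and 5 between HFc and KFc, against 41.9%, 36.4% and 29.2% of all genes. *Il6* was higher in HFc than in TFc by 6.29 ± 0.67 on the log2 scale (edgeR, adjusted p = 2e-06) and in KFc than in TFc by 4.94 ± 0.66 (adjusted p = 3.73e-05). *Lif* was higher by 3.69 ± 0.32 (adjusted p = 2.37e-07) and 2.25 ± 0.31 (adjusted p = 4.62e-05) in the same comparisons. The receptor and feedback genes had their highest cultured means in TFc: *Socs3* was lower in HFc (-1.14 ± 0.20, edgeR, adjusted p = 0.000317) and KFc (-1.46 ± 0.20, adjusted p = 5.37e-05) than in TFc, and *Il6st* was lower in KFc than in TFc by 1.83 (-1.83 ± 0.15, adjusted p = 3.31e-07). *Il11* was lower in HFc than in both TFc (-2.33 ± 0.45, adjusted p = 0.000611) and KFc (-2.78 ± 0.45, adjusted p = 0.000242). HFc and KFc also differed in *Il6* (1.35 ± 0.47, edgeR, adjusted p = 0.0423), *Lif* (1.43 ± 0.29, adjusted p = 0.0014), *Clcf1* (-1.31 ± 0.46, adjusted p = 0.0436) and *Il6st* (1.44 ± 0.15, adjusted p = 3.99e-06), and the *Il6* and *Clcf1* calls were lost whenever 1 library of either group was left out.

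After transplantation 3 of 10 members differed between HFs and TFs, 4 between KFs and TFs and 7 between HFs and KFs, against 23.1%, 29.1% and 33.2% of all genes. *Il33* was higher than in TFs by 2.71 ± 0.38 in HFs (edgeR, adjusted p = 1e-04) and by 2.37 ± 0.38 in KFs (adjusted p = 0.000275). *Il6st* was lower than in TFs by 0.90 in HFs (-0.90 ± 0.15, edgeR, adjusted p = 0.000459) and by 1.91 in KFs (-1.91 ± 0.16, adjusted p = 5.84e-07). *Socs3* was lower in HFs than in TFs (-0.92 ± 0.20, adjusted p = 0.00315) and than in KFs (-0.65 ± 0.20, adjusted p = 0.0192). *Il6* passed in none of the 3 comparisons, with log2 differences of 0.67 ± 0.47 for HFs over TFs (edgeR, adjusted p = 0.344), 0.85 for KFs over TFs (adjusted p = 0.197) and -0.18 for HFs over KFs (adjusted p = 0.803). *Il11* was higher in KFs than in TFs (1.38 ± 0.44, edgeR, adjusted p = 0.0266) and *Lif* likewise (0.93 ± 0.29, adjusted p = 0.0235). Both calls were lost without KFs replicate 2 or TFs replicate 2 or 3, and that of *Il11* also without TFs replicate 1. HFs over KFs gave log2 differences of -2.15 ± 0.49 for *Clcf1* (edgeR, adjusted p = 0.00338; -0.80 ± 0.13 and adjusted p = 0.000143 without KFs replicate 3), -1.37 ± 0.44 for *Il11* (adjusted p = 0.0246) and -0.84 ± 0.29 for *Lif* (adjusted p = 0.0335), and *Il1a* was at least 11.7-fold lower in HFs (adjusted p = 0.0226), or 6.996-fold without KFs replicate 2 and 17.0-fold without KFs replicate 3. The higher *Il1a* of KFs over TFs did not pass with all libraries (2.67, edgeR, adjusted p = 0.127) and passed without KFs replicate 3 (3.23, adjusted p = 0.0317). As *Il1a* was tested only because it was high in KFs and TFs libraries, its p-values between these groups are descriptions. Between HFs and KFs, *Il6st* (1.01 ± 0.15, edgeR, adjusted p = 0.000159) and *Osmr* (0.36 ± 0.11, adjusted p = 0.0222) were higher in HFs. Of these calls of HFs against KFs, those of *Lif* and *Il11* were lost without HFs replicate 2 or 3 or KFs replicate 2, and those of *Lif* and *Socs3* without KFs replicate 3.

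Whether the response to transplantation itself differed between organs was tested with interaction contrasts in the same model, in which all pairs of organs share groups. Between heart and tail 3 of 10 members were called, between kidney and tail 2 and between heart and kidney 2, against 22.8%, 11.1% and 26.2% of all genes. The response of *Il6* was smaller than in the tail by 5.62 ± 0.82 log2 units in the heart (-5.62, edgeR, adjusted p = 0.000212) and by 4.09 ± 0.83 in the kidney (-4.09, adjusted p = 0.00512). *Lif* fell in the heart (-1.49) and rose in the tail (2.11), and heart minus tail was -3.60 ± 0.42 (edgeR, adjusted p = 3.68e-05). Heart minus kidney was -2.28 ± 0.41 (adjusted p = 0.000909), with a kidney change of 0.79 that was under the fold limit. The *Socs3* response was larger in the kidney than in the tail (1.19 ± 0.28, edgeR, adjusted p = 0.0131) and than in the heart (heart minus kidney -0.97 ± 0.28, adjusted p = 0.0196), and without KFs replicate 3 these differences were 1.02 (adjusted p = 0.014) and -0.76 (adjusted p = 0.0423). *Il11* differed between heart and tail by 2.33 ± 0.64 (edgeR, adjusted p = 0.0158). Leaving out KFs replicate 3 added calls that all libraries did not give. These were *Lif* for kidney minus tail (-1.45, edgeR, adjusted p = 0.0242) and, for heart minus kidney, *Il6* (-1.65, adjusted p = 0.0438) and *Il6st* (-0.52, adjusted p = 0.0329). *Clcf1* for heart minus kidney turned from -0.84 (edgeR, adjusted p = 0.385) to 0.55 and was called (adjusted p = 0.0162). For *Il33* no difference between organs in the response passed, with 2.65 for heart minus tail (adjusted p = 0.0896) and 1.57 for kidney minus tail (adjusted p = 0.343), although without KFs replicate 3 the former was 2.67 and passed (adjusted p = 0.0372).

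The partner genes of the members came from lists chosen with the members, and the counts below stand against the shares of all genes that rose (18.3%, 14.7% and 11% in heart, kidney and tail) and fell (9.33%, 7.99% and 5.53%). Without KFs replicate 3 the kidney calls of *Il6ra* (-0.79), *Lifr* (0.96), *Il18rap* (0.95) and *Arid5a* (0.67) fell under the fold limit, while those of *Osm* (2.47) and *Socs2* (-1.48) were gained (edgeR). Of 6 further IL-6 family receptor genes, 2 rose in the heart, 3 rose and 1 fell in the kidney, and 4 rose and 1 fell in the tail, with medians of 0.88, 0.59 and 1.56 on the log2 scale against 0.05, 0.09 and 0 over all genes. *Lifr*, the LIF receptor chain, rose by 1.04 ± 0.13 in the kidney (edgeR, adjusted p = 1.19e-05) and by 1.75 ± 0.13 in the tail (adjusted p = 1.63e-07), and stood at 0.72 in the heart, under the fold limit. *Il6ra*, the IL-6-binding chain, fell by 1.12 in the kidney (-1.12 ± 0.35, adjusted p = 0.0147) and rose by 1.57 ± 0.36 in the tail (adjusted p = 0.00306), from 1.98 CPM in TFc to 5.92 CPM in TFs. *Il11ra1* was called in no organ, and its log2 fold changes lay between -0.10 and 0.49. The ciliary neurotrophic factor receptor *Cntfr* (3.13, 2.25 and 1.55 in heart, kidney and tail) and the IL-27 receptor *Il27ra* (between 1.74 and 2.74) rose in all 3 organs.

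Oncostatin M itself (*Osm*), the ligand of the chain encoded by *Osmr*, averaged below 0.86 CPM in every group and passed in none of the 3 organs with all libraries. Among 7 JAK and STAT genes 3, 3 and 2 rose in heart, kidney and tail and none fell. *Jak2* rose by 1.63, 1.59 and 1.58, whereas *Stat3* lay between -0.09 and 0.18 and was not called. Of 12 genes listed as STAT feedback and target genes outside the members, 5, 4 and 3 rose and 1, *Socs2*, fell in the tail by 1.16 (-1.16). *Bcl3* (1.51, 2.29 and 2.24), *Fgl2* (3.59, 1.68 and 2.71) and *Junb* (1.42, 1.23 and 1.14) rose in each organ, and *Pim1* rose in the heart by 2.65.

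On the IL-1 side, 4, 5 and 2 of 8 receptor genes rose and none fell. *Il1r1*, the signalling receptor for both IL-1 forms, rose in each organ, by 2.29 ± 0.27 in the heart (edgeR, adjusted p = 4.35e-06), 2.26 ± 0.27 in the kidney (adjusted p = 7.22e-06) and 1.58 ± 0.26 in the tail (adjusted p = 0.000248). The decoy receptor *Il1r2* rose in heart (2.42) and kidney (2.92) from means of at most 0.19 CPM, and the shared chain *Il1rap* was called in none. *Il1rl1*, which encodes the IL-33 receptor ST2, rose by 1.30 in the heart (edgeR, adjusted p = 0.0152) and 1.48 in the kidney (adjusted p = 9.49e-05) and stood at -0.55 in the tail (adjusted p = 0.0596). Transplanted cells averaged 141 CPM of *Il1rl1* in TFs, 27.2 CPM in KFs and 1.10 CPM in HFs, and cultured cells, in which *Il33* did not exceed 0.952 CPM in any library, had the same order (206, 9.35 and 0.45 CPM). Of the transplanted groups TFs had the highest mean of *Il1rl1* and the lowest of *Il33*, while HFs and KFs did not differ past the threshold in *Il33* (0.33, adjusted p = 0.509). *Il1rl1* had a log2 difference of HFs over TFs of -6.88 ± 0.31 (edgeR, adjusted p = 8.34e-10). The receptor antagonist *Il1rn* rose by 4.25 ± 0.93 in the heart from counts of at most 5 in HFc (adjusted p = 0.00116), and stood at 0.08 in the kidney and -0.23 in the tail. *Il18bp*, an IL-18 inhibitor, rose by 1.92, 1.76 and 2.04 in heart, kidney and tail.

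**Figure D5:**
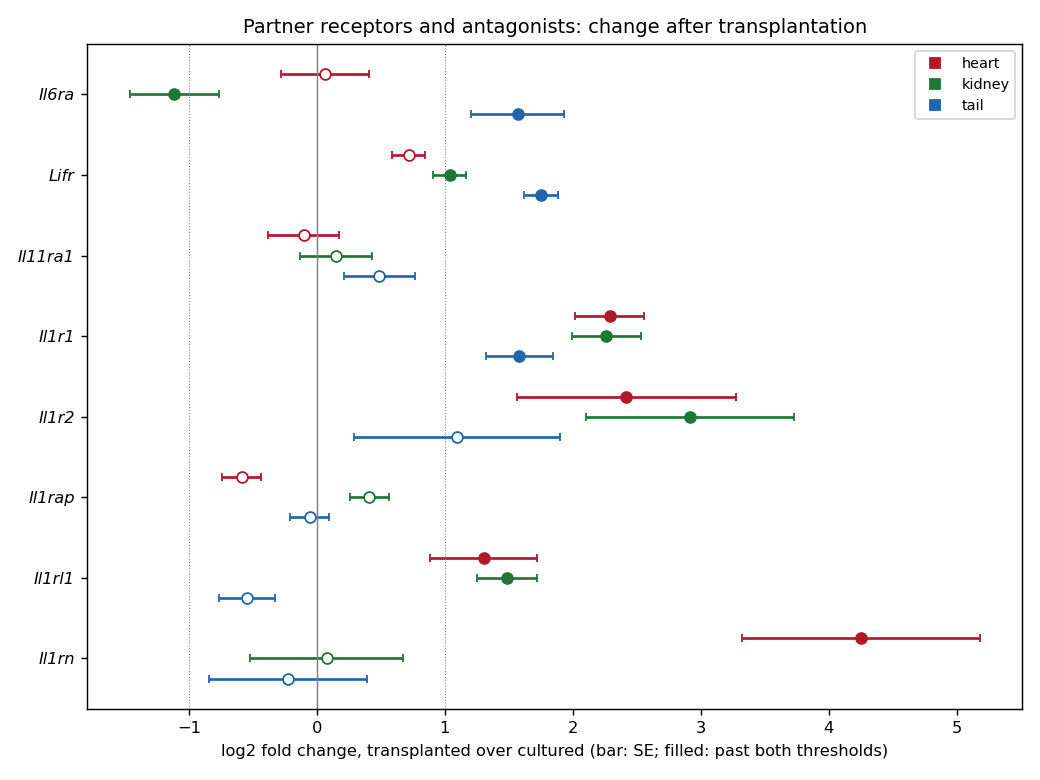
Log2 fold change after transplantation over culture of 8 partner genes in heart, kidney and tail fibroblasts (points, with bars for the standard error; filled points passed both thresholds; dotted lines mark the fold limit). *Il6ra* was lower in the kidney and higher in the tail, and *Il1r1* was higher in all 3 organs.

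Of 8 adaptors and kinases of the IL-1 receptor, the 1 called in any organ was *Irak3*, an inhibitory kinase homologue, which rose by 1.03 in the tail. Of 7 genes for the inflammasome and IL-1 processing, 4 rose and 1 fell in the heart, 1 rose and 1 fell in the kidney, and 2 rose in the tail. *Casp1*, which cleaves the IL-1 beta precursor, rose in the heart (2.33) and not in kidney (0.49) or tail (0.64). The heart rise started from 3 to 7 counts per library, with means of 0.21 CPM in HFc and 0.99 CPM in HFs. HFs still had the lowest mean of the transplanted groups, against 2.61 CPM in KFs and 1.39 CPM in TFs. *Casp4* rose in all 3 organs (1.76, 2.58 and 2.31). The calpain gene *Capn2* fell by 1.69 in the heart (-1.69) and 1.02 in the kidney (-1.02). Genes that control the stability of cytokine mRNA rose in 2, 3 and 3 of 6 cases, among them *Zfp36*, which binds AU-rich elements (between 1.84 and 2.03), and *Zfp36l1* (between 1.60 and 1.91) in each organ, and *Zc3h12a*, the RNase regnase-1, in the tail (1.52).

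Across the 18 libraries, which share groups and depth, *Il6* and *Lif* were the members whose log2(CPM + 1) levels were most alike (Pearson's r = 0.90), followed by *Osmr* and *Socs3* (0.86), *Il1a* and *Il1b* (0.81), *Socs3* and *Il33* (0.78) and *Il11* and *Clcf1* (0.77). Among 12788 genes, the levels most like those of *Il6* were *Lamb1* (0.913), *Bhlhe41* (0.912) and *Adamts9* (0.912). *Lif* was followed most closely by *Akr1b8* (0.953) and *Etv6* (0.927), and *Il11* by *Polr2a* (0.956), *Epha1* (0.946) and *Rps6ka1* (0.929). For *Il33* the nearest genes were *Fosb* (0.979), *Enpp3* (0.968) and *Plppr3* (0.964), and for *Il1b* they were *Clec4e* (0.935), *Higd1a* (0.912) and *G2e3* (0.902). These values describe the 6 groups of libraries and carry no test.

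Gene positions are given in GRCm38 coordinates from GENCODE mouse release 21. *Il6* (ENSMUSG00000025746) is at chr5:30013114-30019981, *Lif* (ENSMUSG00000034394) at chr11:4257557-4272514 and *Socs3* (ENSMUSG00000053113) at chr11:117966079-117970047. *Il33* (ENSMUSG00000024810) is at chr19:29925114-29960718 and *Clcf1* (ENSMUSG00000040663) at chr19:4214238-4223490. *Il1a* (ENSMUSG00000027399, chr2:129299610-129309972) and *Il1b* (ENSMUSG00000027398, chr2:129364570-129371139) are neighbours on the minus strand, and each overlaps a gene on the opposite strand that held at most 88 counts over all libraries. *Il11* (ENSMUSG00000004371) is at chr7:4772373-4782859, *Il6st* (ENSMUSG00000021756) at chr13:112464070-112510086 and *Osmr* (ENSMUSG00000022146) at chr15:6813577-6874969. Counts are given per gene, so transcript forms were not separated.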

How the data were processed

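RNA was measured in 18 libraries, 3 in each of the 6 groups, and all were used; conditions and replicate numbers came from the sample titles. The authors trimmed single-end reads of 75 bases from stranded total RNA libraries, ran RSEM with Bowtie2 as its aligner, and deposited one column of expected counts per library, in whole numbers and not normalized. The paper names GRCm38 and the submitters' processing notes list mm9; positions here come from GENCODE mouse release 21 (GRCm38). Identifiers with a symbol in that release numbered 37607, and 1317 had none.

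A quasi-likelihood model of edgeR 4.0.16 in R 4.3.3 (filterByExpr, TMM, glmQLFit, glmQLFTest) with 6 group means was fitted to the 18 libraries, and Benjamini-Hochberg adjustment covered all 16577 genes that passed the filter. Transplanted and cultured cells were compared at an adjusted p threshold of 0.05 with a log2 fold change past 1, and organs and responses at the adjusted p threshold alone. The SE of a log2 fold change was obtained from its F statistic. The biological coefficient of variation amounted to 0.24. The method was tested on simulated data. CPM values use library totals without TMM scaling. Lower bounds of folds use a floor of 3 counts per library, which at these totals (17927838 to 32245168) covers counting error only.

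The members and gene lists were chosen with earlier results of these data known. All members were described, and named from the partner lists were 10 receptors and ligands set by rule and up to 3 called genes per list with the largest change. Promoter sequences came from RefSeq (GRCm38.p6); the AP-1 motif was added after the sequences were seen. Protein sequences were not used here. Some results under this naming rule are not reported here. Alternatives were DESeq2 1.42.0, its size factors, library size alone, no filter, a mean of at least 10 counts, a block for the replicate number, 2-group fits, other fold limits, and omission of each library; for contrasts without kidney cells and for partner genes the omission of KFs replicate 3, and for fold bounds that of single libraries, was chosen after seeing the data. Figures were drawn with matplotlib 3.10.9 in Python 3.11.15.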

Additional observations from a re-analysis of the deposited data

Results flagged for a closer look

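A response to transplantation that differed between organs by an interaction contrast (edgeR quasi-likelihood test, Benjamini-Hochberg adjustment, n = 3 libraries per group) was found for 4 members. The differences in log2 fold change of heart minus tail were -5.62 for *Il6*, -3.60 for *Lif* and 2.33 for *Il11*. Those of kidney minus tail were -4.09 for *Il6* and 1.19 for *Socs3*, and those of heart minus kidney were -2.28 for *Lif* and -0.97 for *Socs3*. The contrasts share groups, so they are not independent of one another. The *Socs3* difference between heart and kidney was lost when HFc replicate 3 or HFs replicate 2 was left out. Over all genes, 22.8%, 11.1% and 26.2% were called in the contrasts of heart with tail, kidney with tail and heart with kidney.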

How the results depend on the processing

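In the log2 fold changes of single members after transplantation, 367 of the values under alternatives kept the direction and the side of the threshold, 15 gained a call, 19 lost one, and 1 turned: *Clcf1* in the kidney was 0.055 without KFs replicate 1, and -1.72 without KFs replicate 3. The kidney count of 4 called members became 7 without the fold limit. With a fold limit of 1 between organs, 1 member was called for HFs against TFs and 4 for HFs against KFs. When each library was left out in turn, the count of called members ranged from 3 to 5 for HFs against HFc, 4 to 7 for KFs against KFc (7 without KFs replicate 3), 6 to 8 for TFs against TFc, 3 to 5 for HFc against KFc, 3 to 4 for HFs against TFs, 2 to 5 for KFs against TFs, 3 to 6 for HFs against KFs, 3 to 6 for the heart minus tail response (6 without KFs replicate 3, a fit chosen after seeing the data) and 1 to 5 for the heart minus kidney response (5 without KFs replicate 3). Calls near the threshold were *Clcf1* in the heart (edgeR, adjusted p = 0.0579 with DESeq2's size factors, 0.0534 with library size alone, 0.054 with a mean of at least 10 counts and up to 0.129 without single libraries), *Clcf1* in the tail (0.0571 without TFs replicate 3), *Il1b* in the heart (0.0521 to 0.066 without an HFc library) and tail (0.0508 to 0.0601 without a TFc library or TFs replicate 1), and *Il6* in the kidney, which was called with DESeq2 (0.0418), with library size alone (0.0478) and in the 2-group fit (0.0197); the cause was not tested. *Il1a* in the kidney was not tested with a mean of at least 10 counts, in the 2-group fits *Il1b* (heart and kidney) and *Il1a* (all organs) fell under the filter, and in the tail it was called with DESeq2 (0.0354). With the replicate number as a block, 4 members were called for HFs against HFc (*Clcf1* lost, adjusted p = 0.052), 5 for HFc against TFc (*Il6st* lost), 4 for HFc against KFc (*Il6* lost) and 6 for HFs against KFs (*Il1a* lost), and no other call moved. Deviations from the group means correlated between -0.043 and 0.056 for libraries with the same number and between -0.058 and 0.063 for others, so the numbers are not taken to pair the samples. Depth limits *Il1a*, *Il1b* and the cultured levels of *Il33*, which rest on few counts.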
